A study of Homo sapiens with 15 samples.

Results

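Cells hold a set of chaperones, proteins that help others to fold, and raise it when folding fails. The data describe 36 such genes, chosen by name as known chaperone and ER stress genes, out of 60671 genes in the count table. The choice was made with earlier results of these data known. Of the 36 genes, 20 act in the endoplasmic reticulum (ER), where secreted and membrane proteins fold. The remaining 16 act in the cytosol or the mitochondria. All 36 were found in the table, and all 36 passed the filter on low counts that left 16160 genes for testing.

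RNA was sequenced from HT115, an established colorectal cancer cell line, in 5 groups of 3 libraries. Every group was treated with doxycycline, 0.5 µg/ml for 24 h, which switched on an introduced gene. The control group made green fluorescent protein (GFP), and the group SOX9_WT made V5-tagged wild-type SOX9, a transcription factor of intestinal crypts. The groups M228, M303 and M379 made V5-tagged SOX9 mutants, of which the series' text calls M303 truncated and says nothing further of the others. No group without doxycycline is used here, so any effect of the drug was shared by all 5 groups. The series' text speaks of replicates in pairs while the labels number 3 per group, and neither says whether the numbered libraries came from separate cultures or what a number marks. The p-values therefore rest on library-to-library spread that could be purely technical.

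In the ER, misfolded proteins engage sensors in the membrane, among them the protein of ERN1 (IRE1). Activated IRE1 splices the messenger RNA of XBP1, and the resulting factor, with ATF6 and ATF4, raises the genes of ER folding and of ER-associated degradation. This is the unfolded protein response. In the cytosol, heat shock factor HSF1 plays the matching role and drives HSP70, HSP90 and their partners. The counts give the amount of RNA per gene and do not show splicing of XBP1 or the activity of any sensor.

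Both responses act through short promoter elements, and the sequences of exact matches to the classical element of each response are shown. Promoter windows of 300 bases, from 250 before to 50 after the start of each gene (RefSeq, GRCh38.p14), were matched for 34 of the 36 genes, PDIA3 and FKBP4 being the other two. The ER stress element was searched as CCAAT, any 9 bases and CCACG, on both strands. It lay in 6 of 19 ER windows, 0 of 15 cytosolic and mitochondrial windows, and 0.0769% of all 35116 windows. The sites follow 5′ to 3′ on the strand of the gene, with the fixed letters of the element in capitals and 5 bases on each side.
HSPA5, chr9:125241386-125241414, minus strand: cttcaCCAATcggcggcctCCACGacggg
HSP90B1, chr12:103930211-103930239, plus strand: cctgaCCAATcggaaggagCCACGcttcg
HSP90B1, chr12:103930316-103930344, plus strand: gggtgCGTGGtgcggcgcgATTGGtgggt
CALR, chr19:12938379-12938407, plus strand: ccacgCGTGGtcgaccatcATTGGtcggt
CANX, chr5:179698773-179698801, plus strand: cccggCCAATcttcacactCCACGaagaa
XBP1, chr22:28800598-28800626, minus strand: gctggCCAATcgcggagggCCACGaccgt
CRELD2, chr22:49918549-49918577, plus strand: cctctCGTGGcgaactcggATTGGgccat

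The HSPA5 site began 66 bases before the start of the gene and the XBP1 site 52 bases before it. The sites of HSP90B1 and CANX overlapped an exon of the same gene in the annotation used for counting, which includes longer transcripts. Every ER stress element contains a CCAAT box, and the CCAAT box alone was in 17 of 19 ER windows, 5 of 15 of the others and 34.6% of all windows. A match is a run of letters and does not show that a factor binds there. Only exact matches within the window were searched, for both elements. A gene without a match may therefore still carry an element with other letters or outside the window.

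The heat shock element, searched as GAA, TTC and GAA with any 2 bases between each pair, on both strands, lay in 3 of 15 cytosolic and mitochondrial windows (HSPA8, DNAJA1 and CHORDC1), 0 of 19 ER windows and 0.49% of all windows. Both HSPA8 sites shown overlapped an exon of HSPA8 in the annotation used for counting. The sites before the gene start are given below on the strand of the gene with 8 bases on each side, or 3 for CHORDC1, and the 3 overlapping matches of CHORDC1 are shown as 1 run.
HSPA8, chr11:123062346-123062374, minus strand: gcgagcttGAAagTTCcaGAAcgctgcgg
HSPA8, chr11:123062171-123062199, minus strand: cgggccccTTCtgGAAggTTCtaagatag
CHORDC1, chr11:90223084-90223112, minus strand: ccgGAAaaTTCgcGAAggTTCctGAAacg

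Library totals ran from 3054755 reads in GFP 1 to 31704249 in M303 1. SOX9 was at 97.6 to 158 CPM (read counts scaled to a common library size, in CPM units) in the GFP group, 186 to 243 in SOX9_WT and 1900 to 3039 in the mutant groups. Library GFP 2 stood apart: ribosomal protein genes took 6.61% of its reads and 3.42 to 4.52% of the reads of each of the other 14 libraries. It was the highest of all 15 libraries for 12 ER and 8 cytosolic or mitochondrial members, and the lowest for 5 ER members. For how many of all tested genes GFP 2 was the highest or lowest was not counted, so no share stands beside these counts. All 12 colorectal epithelial markers were expressed, with EPCAM at 848 to 1117 CPM. The 16 fibroblast, endothelial and leukocyte markers summed to 4.43 to 7.05 CPM, and CDH5 and CD3E had no read in any library.

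Compared per length of exon, the cytosolic HSP90 and HSP70 chaperones were the most abundant members. Mean RPKM (CPM per kilobase of exon) over 15 libraries was 1124 for HSP90AB1, 776 for the stress-inducible HSP90AA1 and 767 for HSPA8, the constitutive HSP70. Levels of the last pair overlapped, with ranges of 575 to 941 and 556 to 931 RPKM. HSPB1, a small heat shock protein, followed at 397 RPKM and HSPD1, the mitochondrial chaperonin HSP60, at 381. These were abundant transcripts: HSP90AB1 exceeded 99.9% of tested genes and HSPD1 99.6%.

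In the ER, the calcium-binding lectin chaperone CALR (263 RPKM) and HSP90B1, the ER form of HSP90 (261 RPKM), led. HSPA5, the ER HSP70 also called BiP, was at 181 RPKM. The inducible cytosolic HSP70 genes HSPA1A and HSPA1B were far lower, at 48.9 and 53.8 RPKM, and because the pair is nearly identical in sequence, the way reads were divided between them or dropped is uncertain. At the bottom lay the sensor ERN1 at 2.07 RPKM and HERPUD1, a factor of ER-associated degradation, at 0.975. HERPUD1 had 2.92 to 5.96 CPM in every library (15 to 143 reads), and 25.7% of tested genes lay below it. Whether this low level is real or comes from the counting could not be settled from the counts.

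**Figure D1:**
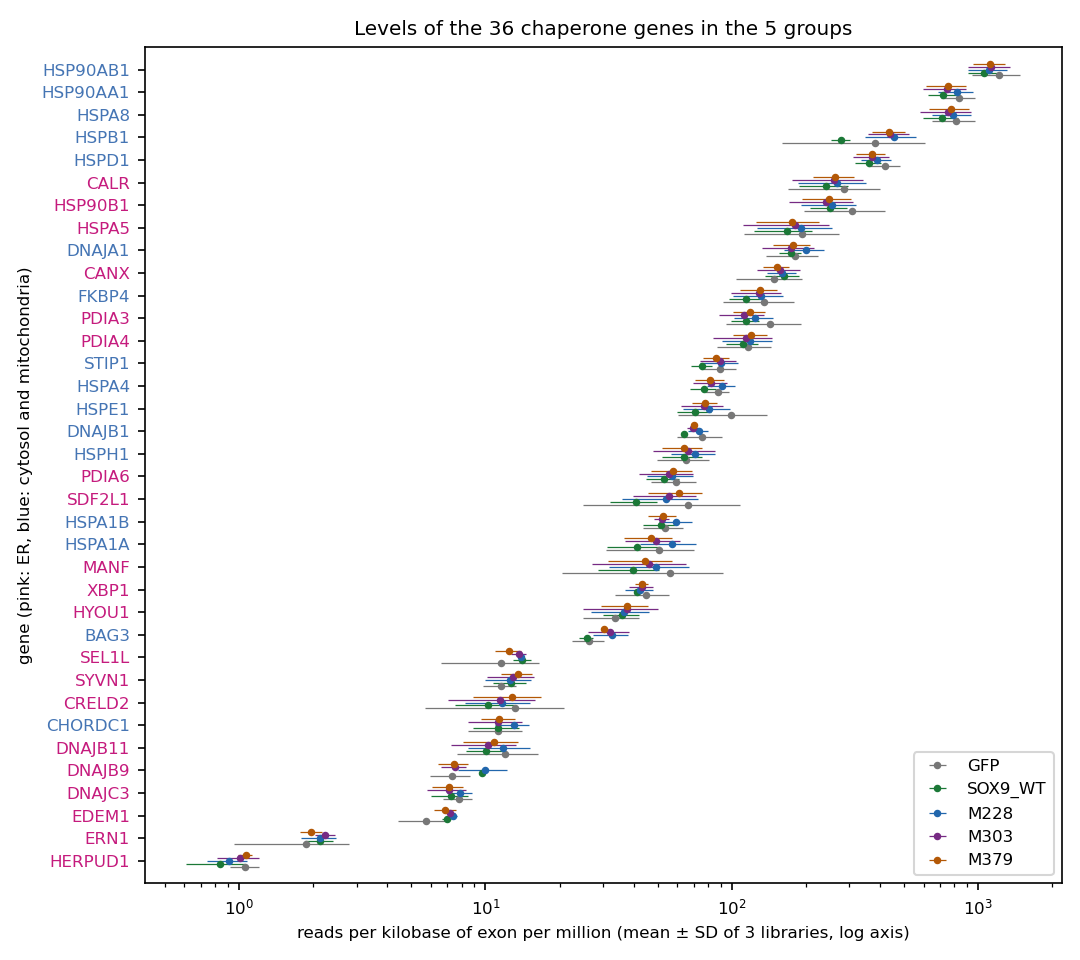
RPKM (log axis) for the 36 genes, ordered by mean level; points are group means and bars the SD of 3 libraries, coloured by group. The 5 groups lie close together for most genes, from HERPUD1 near 1 to HSP90AB1 near 1124.

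Some of these levels are uncertain, since with the counting tool's defaults reads that matched exons of several genes, on either strand, were dropped. Exons of other genes overlapped 25.2% of the exon length of PDIA6, 23.2% of DNAJB11, 18.9% of PDIA3, 17.9% of HSPE1, 16.7% of HSP90B1 and 36.6% of HSPA1B. For HSPA1B the overlapping exons were all on the same strand. HSPE1 and HSPD1, the 2 subunits of the mitochondrial chaperonin, are neighbours on chromosome 2 (HSPD1 at 197486584 to 197516737, minus strand; HSPE1 at 197500140 to 197503449, plus strand; GRCh38) and overlap in the annotation.

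None of the 36 genes passed the main test, which had no block for replicate number, in a comparison between groups. In each of the 7 comparisons between groups, 0 of 36 members reached an adjusted p of 0.05 in edgeR's quasi-likelihood test with Benjamini-Hochberg adjustment over all tested genes, and DESeq2 also called 0 in each. Few genes of any kind were called: 0.0309% of tested genes for SOX9_WT minus GFP, 0.241% for M228 minus GFP, 0.118% for M303 minus GFP and 0.0371% for M379 minus GFP. Against SOX9_WT the shares were 0.569% for M228, 0.384% for M303 and 0.124% for M379. At an unadjusted p under 0.05 there were 7 of 252 member tests, from 3 genes. The 95% interval around a member's log2 fold change had a median half-width of 0.49 to 0.50 in the 7 comparisons. Replicate numbers met the pairing rule (given under processing) in 4 of them. With the number as a block 0 members were called there. The tested genes called were 181 of 16160 for M228, 85 for M303 and 17 for M379 minus GFP, and 259 for M303 minus SOX9_WT. The median SE of a member was then 0.12 in each, so smaller differences were in reach of the block than of the fit without it. In M228 minus SOX9_WT, where the numbers fell short of the pairing rule, the block called 1 member, HSPA1A (adjusted p = 0.0348). In that fit 319 of 16160 tested genes were called.

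Against GFP, the arms sat near or below 0. The median log2 fold change for SOX9_WT was -0.14 over the ER members and -0.21 over the cytosolic and mitochondrial members, and 0.007 over all tested genes. For M228 the 2 arm medians were -0.03 and 0.03, for M303 -0.09 and -0.07, and for M379 -0.05 and -0.06. These 4 comparisons share the GFP libraries. Without GFP 2 the medians became -0.007 and -0.06 for SOX9_WT, 0.13 and 0.12 for M228, 0.07 and 0.06 for M303, and 0.08 and 0.05 for M379.

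SDF2L1, a partner of BiP in the ER, had the lowest value for SOX9_WT minus GFP, -0.73 on the log2 scale. Its level was 33.5, 119 and 58.5 CPM in GFP libraries 1, 2 and 3 and 34.1, 42.6 and 53.0 CPM in SOX9_WT. The groups overlapped, and the highest value was that of GFP 2. MANF, a secreted ER stress protein, came next at -0.52, and without GFP 2 its difference was 0.02. Among the mutants, the lowest values were -0.31 for SDF2L1 and -0.31 for HSPE1 in M228, -0.37 for HSPE1 and -0.36 for HSP90B1 in M303, and -0.36 for HSPE1 and -0.36 for MANF in M379. Leaving out GFP 2 turned SDF2L1 in M228 to 0.26, HSPE1 in M228 to 0.05 and MANF in M379 to 0.18.

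DNAJB9, a J protein of the ER that holds IRE1 inactive, had the highest value in SOX9_WT and in M228 against GFP. It was at 17.6, 15.7 and 22.3 CPM in GFP, 25.1, 24.1 and 24.2 CPM in SOX9_WT, and 24.2, 31.6 and 20.3 CPM in M228. All 3 SOX9_WT libraries lay above all 3 GFP libraries, while those of M228 overlapped them. The log2 fold changes were 0.39 ± 0.18 (SE, adjusted p = 0.464) and 0.43 ± 0.18 (adjusted p = 0.479). In M303 DNAJB9 was at 21.6, 17.9 and 17.6 CPM and in M379 at 22.0, 17.8 and 17.1 CPM, all within the GFP range.

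EDEM1, a lectin that sends misfolded glycoproteins to degradation, was among the 2 highest members in all 3 mutants against GFP. It measured 39.2, 29.4 and 46.9 CPM in GFP and 48.0, 48.6 and 52.1 CPM in M228. The M228 libraries were all above those of GFP, of which GFP 2 was the lowest. The log2 fold change was 0.36 ± 0.15 in M228 (adjusted p = 0.468), 0.33 ± 0.15 in M303 (adjusted p = 0.614) and 0.27 in M379. SEL1L and SYVN1, partners in the ubiquitin ligase of ER-associated degradation, also stood among the highest, SEL1L at 0.29 in SOX9_WT and SYVN1 at 0.22 in M379. Without GFP 2, the lowest library for SEL1L at 56.0 CPM, that SEL1L value was -0.03. ERN1 was at 0.32 in M303 and at -0.04 without GFP 2, where it measured 9.54 CPM against 29.2 and 22.1 in the other GFP libraries.

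Against SOX9_WT, HSPB1 had the highest value in each mutant. This small heat shock protein (gene ENSG00000106211, chromosome 7, 76302673 to 76304295, plus strand, GRCh38) binds unfolding proteins without ATP. It was at 404, 473 and 470 CPM in SOX9_WT, 537, 820 and 848 CPM in M228, 564, 827 and 746 CPM in M303, and 614, 826 and 682 CPM in M379. Each of the 9 mutant libraries lay above all 3 SOX9_WT libraries. The log2 fold change was 0.71 ± 0.30 in M228 (adjusted p = 0.621), 0.67 ± 0.30 in M303 (adjusted p = 0.763) and 0.66 ± 0.30 in M379 (adjusted p = 0.979). The GFP libraries, at 352, 1032 and 479 CPM, covered the range of both. The 3 comparisons share the SOX9_WT libraries. In all 3 the mutants also had more SOX9 RNA, 1900 to 3039 CPM against 186 to 243 in SOX9_WT. A difference due to the mutation and one due to the amount of SOX9 RNA cannot be told apart. When no filter on low counts was applied, HSPB1 was called in all 3 (edgeR, adjusted p of 0.00565, 0.00967 and 0.0347). Fitting only the 2 groups compared called it in M228 and M379 (edgeR, adjusted p of 0.0407 and 0.0236) and not in M303. The main fit pooled the spread over the 5 groups. The common dispersion, a measure of spread between libraries, was 0.103 in GFP and 0.00859 to 0.0236 in the other groups. Over all settings adjusted p ran up to 1.0 in each comparison.

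Most members had positive values against SOX9_WT, none of them past the test without a block, and the same difference in SOX9 RNA applies. In M228 minus SOX9_WT, 34 of 36 members had a positive log2 fold change, beside 52.0% of all tested genes, with medians of 0.10 in the ER arm and 0.20 in the other arm. In M303 and M379 the count was 29 of 36 each, with medians of 0.06 and 0.09 in M303 and 0.07 and 0.10 in M379. Without SOX9_WT 1 the 2 medians were 0.01 and 0.11 in M228, -0.06 and -0.01 in M303, and -0.003 and -0.006 in M379. That setting leaves only SOX9_WT without a library numbered 1, and most members were lower in those libraries (below). With libraries 2 and 3 of every group alone, a check added after the values were seen, positive members numbered 34, 31 and 28 of 36 in M228, M303 and M379. The medians were then 0.13 and 0.23 in M228, 0.13 and 0.13 in M303, and 0.11 and 0.09 in M379. HSPA1A followed HSPB1 in M228 at 0.47, with 106, 174 and 130 CPM against 76.3, 124 and 96.1 CPM. Libraries of the 2 groups overlapped, but M228 was the higher at each replicate number. With the number as a block HSPA1A was called (edgeR, adjusted p = 0.0348). SDF2L1 was second in M303 at 0.44 and in M379 at 0.58. The lowest members were SEL1L and CANX in M228, both at -0.02, DNAJB9 at -0.36 and HSP90B1 at -0.06 in M303, and DNAJB9 at -0.37 and SEL1L at -0.19 in M379.

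**Figure D2:**
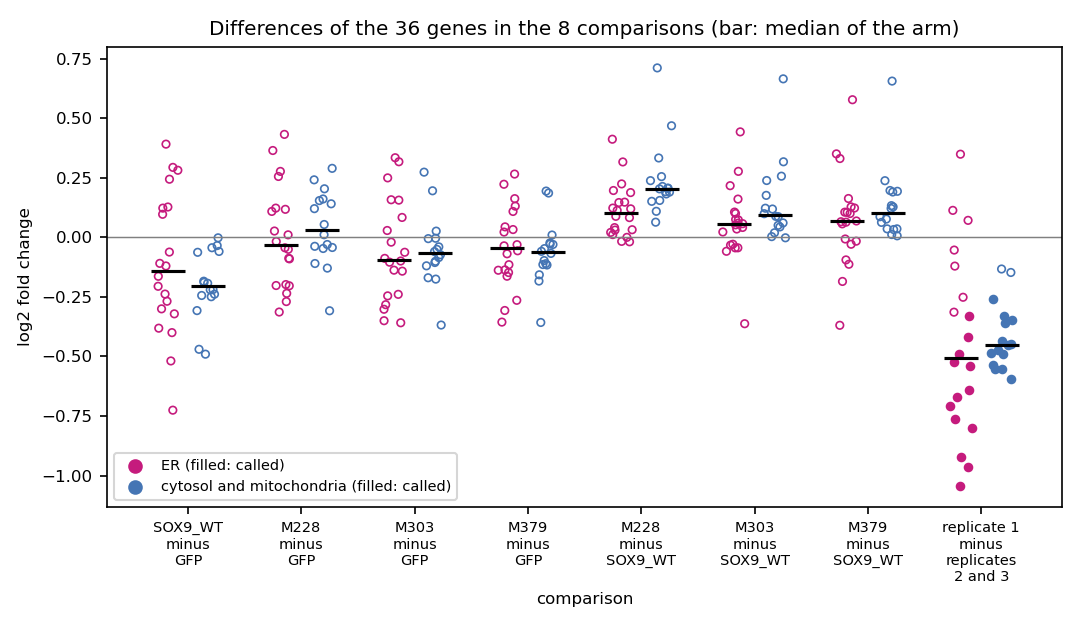
Log2 fold change of each of the 36 genes in the 8 comparisons, ER genes in pink and cytosolic and mitochondrial genes in blue; filled points passed an adjusted p of 0.05 and bars are arm medians. No point is filled in the 7 comparisons between groups, and 27 of 36 are filled, all below 0, in the comparison by replicate number.

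Most of these genes were lower in the libraries numbered 1 than in the other libraries. In RNA from whole cultures, fewer cells with a gene on and less RNA per cell cannot be told apart. In the libraries numbered 1, compared with those numbered 2 and 3 with group in the model, 27 of 36 members were called lower and 0 higher. Over all tested genes 15.4% were called, 7.93% higher and 7.52% lower. The median log2 fold change was -0.51 over the ER members and -0.45 over the others, with 0.005 over all tested genes. For 21 of 36 members the 5 libraries numbered 1 lay below all 10 others. Within groups, library 1 was the lowest of its 3 in every group for 26 members. How many of all tested genes met either condition was not counted, so these 2 counts have no share to be set beside. Between the libraries numbered 2 and 3, 0 members were called (edgeR, 4 at an unadjusted p under 0.05), with 0.0619% of tested genes called and arm medians of 0.006 and 0.04.

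**Figure D3:**
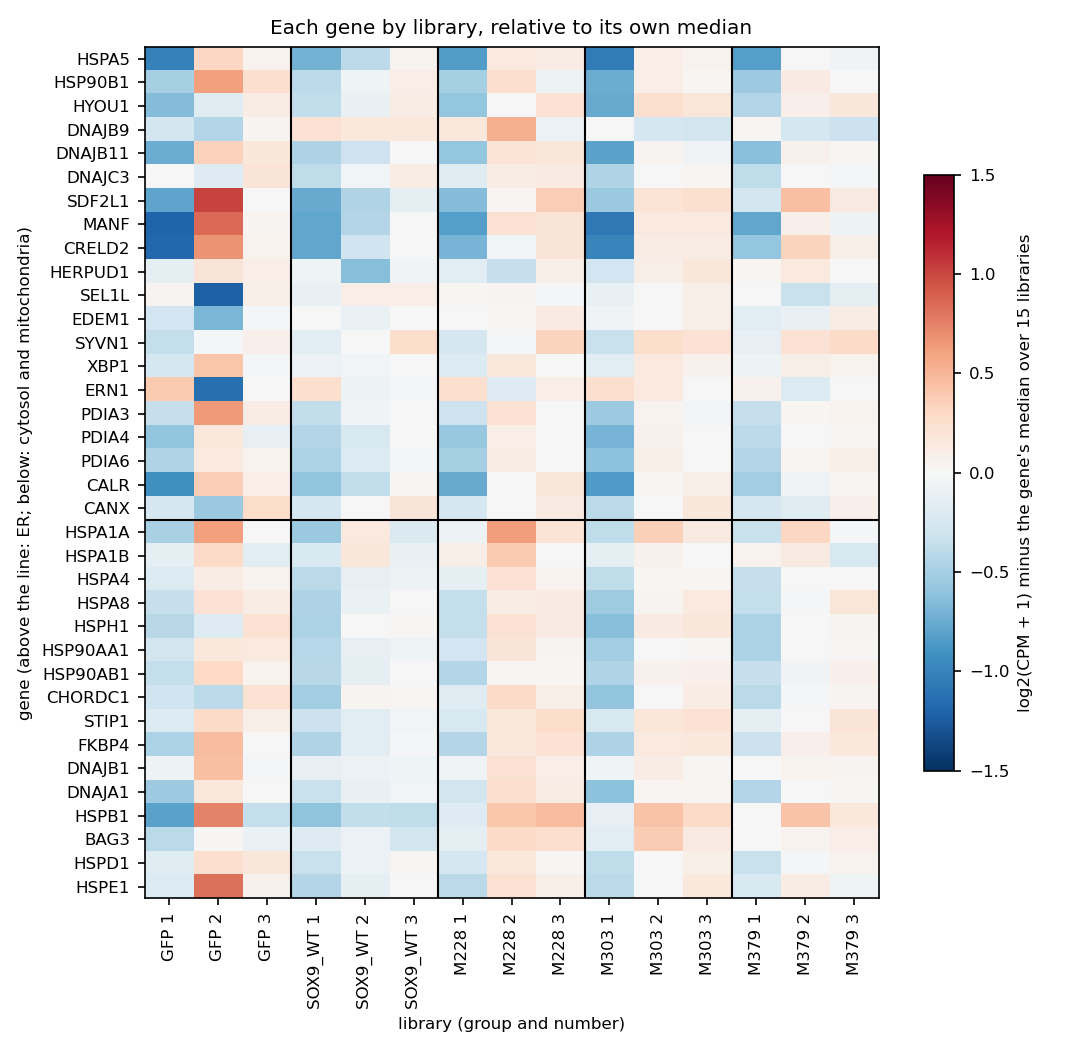
Log2(CPM + 1) of each gene in each of the 15 libraries minus the gene's median over the 15, ER genes above the horizontal line and the others below it. The first column of each group is mostly blue (below the median), and GFP 2 shows both strong reds and, for SEL1L and ERN1, strong blues.

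The largest differences were in the folding genes of the ER. BiP (HSPA5, ENSG00000044574, chromosome 9, 125234853 to 125241343, minus strand, GRCh38) was at 405, 499, 457, 395 and 460 CPM in library 1 of GFP, SOX9_WT, M228, M303 and M379. In libraries 2 and 3 it was at 1014 and 845 CPM in GFP, 624 and 844 in SOX9_WT, 902 and 882 in M228, 874 and 848 in M303, and 817 and 786 in M379. Every library numbered 1 lay below every other library. The log2 fold change was -0.92 ± 0.10 (adjusted p = 0.00019), from a mean of 844 CPM to 443 CPM.

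MANF had the largest difference of the set. Its level was 47.1, 63.7, 61.8, 51.8 and 63.6 CPM in the libraries numbered 1, in the same order of groups, and between 80.6 and 199 CPM in the other 10. The highest of those was GFP 2. The log2 fold change was -1.04 ± 0.16 (adjusted p = 0.000919). CRELD2, a secreted protein with disulfide isomerase activity that is often induced together with MANF, was at 28.9, 38.3, 40.9, 33.0 and 44.2 CPM in the libraries numbered 1 and at 53.9 to 107 CPM in the rest. It differed by -0.96 ± 0.14 (adjusted p = 0.00061).

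Partners of BiP followed. SDF2L1 differed by -0.80 ± 0.16 (adjusted p = 0.00481), and its libraries overlapped, since SOX9_WT 2 at 42.6 CPM lay under M379 1 at 48.3. DNAJB11, a J protein that brings clients to BiP, differed by -0.71 ± 0.09 (adjusted p = 0.000438). HYOU1, the large HSP70 that exchanges the nucleotide of BiP, differed by -0.64 ± 0.09 (adjusted p = 0.000592), and HSP90B1 by -0.67 ± 0.09 (adjusted p = 0.00061). DNAJC3, another J protein and inhibitor of PERK, was called at -0.33 ± 0.09 (adjusted p = 0.0191). DNAJB9 alone of the 6 partners was not called, at 0.11 ± 0.11 (adjusted p = 0.546).

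Of the protein disulfide isomerases and lectins, 4 of 5 were called lower. CALR fell from a mean of 828 to 486 CPM (log2 -0.76 ± 0.11, adjusted p = 0.000612). PDIA4, PDIA6 and PDIA3, which form and shuffle disulfide bonds, differed by -0.54, -0.52 and -0.49. CANX, the membrane-bound relative of CALR, was at -0.31 ± 0.11 and did not pass (adjusted p = 0.0772). It was called lower with DESeq2 (adjusted p = 0.0477), without the filter on low counts (0.00623), without GFP 2 (8.64e-05) and without all GFP libraries (0.000689). GFP 2, at 770 CPM, was below every library numbered 1 for CANX.

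The sensor, the transcription factor and 3 of 4 degradation factors did not pass the test in edgeR over all 15 libraries. XBP1 was at 107 to 122 CPM in the libraries numbered 1 and 125 to 172 CPM in the others, without overlap, and its difference of -0.25 ± 0.08 did not pass (adjusted p = 0.0532). It was called lower with DESeq2 (adjusted p = 0.0277), without GFP 2 (0.00404), without GFP 3 (0.0275), without SOX9_WT 1 (0.043) and without all GFP libraries (0.0134). ERN1 ran the other way: library 1 was the highest of its 3 in 5 of 5 groups, at 29.2, 26.5, 26.6, 26.4 and 23.2 CPM, and the other 10 measured 9.54 to 24.5 CPM. Its difference of 0.35 ± 0.15 did not pass (adjusted p = 0.136). It was called higher without GFP 2 (0.26, adjusted p = 0.00523), without the filter on low counts (0.0309) and without all GFP libraries (0.017). Of 4 genes of ER-associated degradation only SYVN1, the ubiquitin ligase, was called (-0.42 ± 0.08, adjusted p = 0.00363). SEL1L at 0.07, EDEM1 at -0.05 and HERPUD1 at -0.12 were not.

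Of the 6 genes with an ER stress element in the window shown above, 4 were called lower (HSPA5, HSP90B1, CALR and CRELD2), and CANX and XBP1 were called only in the settings named above. Of the 13 ER windows without a match 8 belonged to genes called lower, among them MANF, SDF2L1 and DNAJB11. All 3 genes with an exact heat shock element match were called lower, at -0.49 for HSPA8, -0.49 for DNAJA1 and -0.45 for CHORDC1. So were 10 of the 12 cytosolic and mitochondrial genes whose window had no match.

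**Figure D4:**
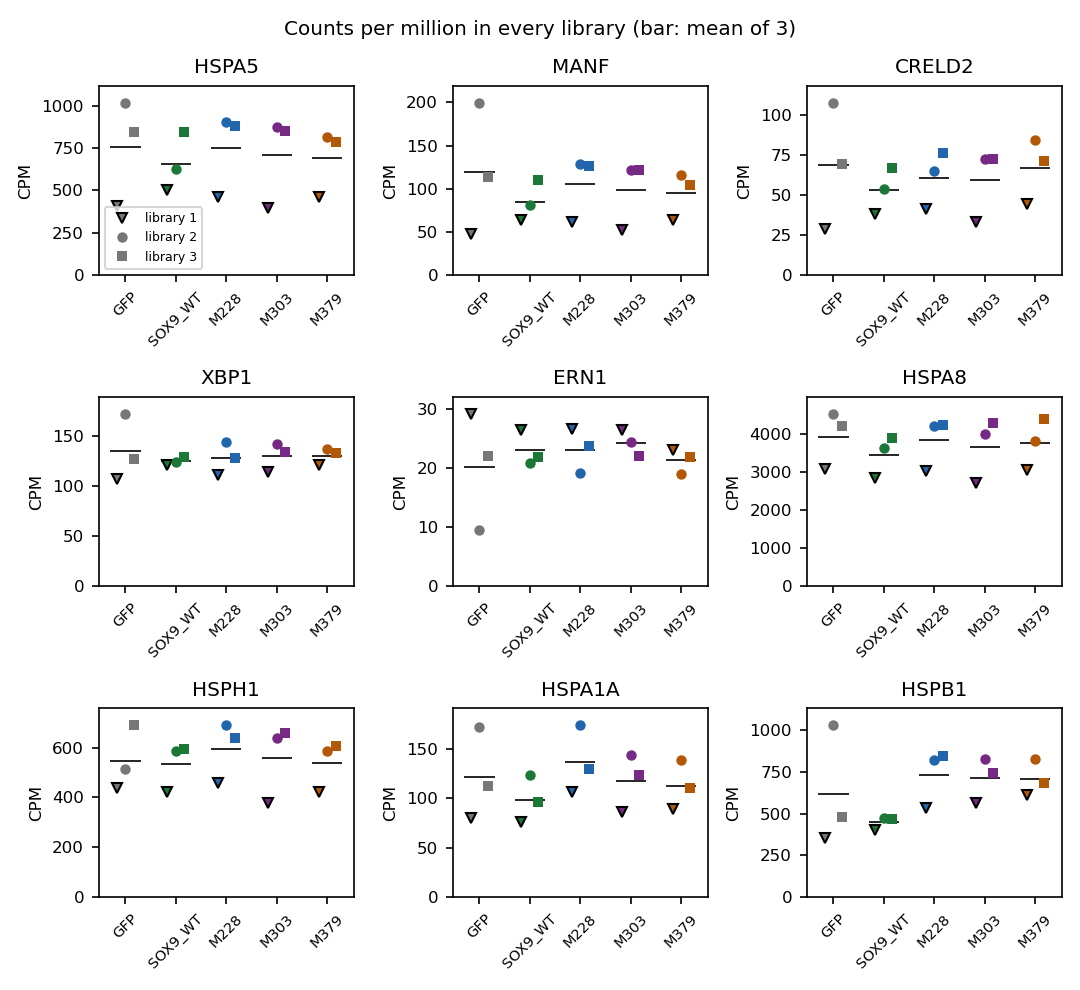
CPM in every library for 9 of the genes, with triangles for library 1, circles for library 2, squares for library 3 and a bar at the mean of each group; axes start at 0. Triangles are the lowest of the 3 in every group except for ERN1, where they are the highest.

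Differences of the cytosolic and mitochondrial members ran from -0.60 to -0.13, and those of the ER members from -1.04 to 0.35. Among the HSP70 and HSP110 genes, HSPA8 was at 2697 to 3062 CPM in the libraries numbered 1 and 3615 to 4517 CPM in the others. The groups of libraries did not overlap, and the difference was -0.49 ± 0.07 (adjusted p = 0.00061). HSPH1, the HSP110 that exchanges the nucleotide of HSP70, was at 378 to 458 CPM against 513 to 690 CPM (-0.55 ± 0.08, adjusted p = 0.000697). HSPA4, its close relative, differed by -0.33 ± 0.06 (adjusted p = 0.00247). The inducible HSPA1A differed by -0.60 ± 0.12 (adjusted p = 0.00439) and overlapped, while its near copy HSPA1B was not called at -0.13 ± 0.10 (adjusted p = 0.409), and the division of reads between the pair is uncertain.

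All 5 members of the HSP90 system were called lower. HSP90AA1 had 2930 to 3475 CPM in the libraries numbered 1 and 3868 to 4797 in the others (-0.43 ± 0.06, adjusted p = 0.000799). HSP90AB1 had 2594 to 2798 against 3250 to 4375 CPM (-0.45 ± 0.07, adjusted p = 0.00109). No library of either gene crossed between the sets. FKBP4, an immunophilin that binds HSP90, differed by -0.55, CHORDC1, an HSP90 partner, by -0.45, and STIP1, which links HSP70 to HSP90, by -0.35. Both chaperonin subunits of the mitochondria were lower, HSPD1 by -0.36 ± 0.06 (adjusted p = 0.00209) and HSPE1 by -0.47 ± 0.11 (adjusted p = 0.0115).

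Of the J proteins and their companions, DNAJA1 differed by -0.49 ± 0.07 (adjusted p = 0.000716), and DNAJB1, a J protein strongly induced by heat, was not called at -0.15 ± 0.08 (adjusted p = 0.226). HSPB1 was at -0.53 ± 0.16 (adjusted p = 0.0321) and BAG3, which couples HSP70 to small heat shock proteins, at -0.26 ± 0.08 (adjusted p = 0.048). The HSPB1 call was lost without GFP 1 (adjusted p = 0.132), M228 1 (0.111) or M303 1 (0.0945), and at adjusted p of 0.0516 to 0.0588 without M228 2, M228 3, M303 2, M379 1 or M379 2. The BAG3 call was lost, at adjusted p of 0.0604 to 0.2, without GFP 1, SOX9_WT 2 or any library of the 3 mutants. Elsewhere in the set, DNAJC3 was lost without SOX9_WT 1, M228 1, M303 1 or M379 1 (0.0512 to 0.103), HSPE1 without GFP 1, M228 1 or M303 1 (0.0527 to 0.0564) and CHORDC1 without M303 1 (0.0527).

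**Figure D5:**
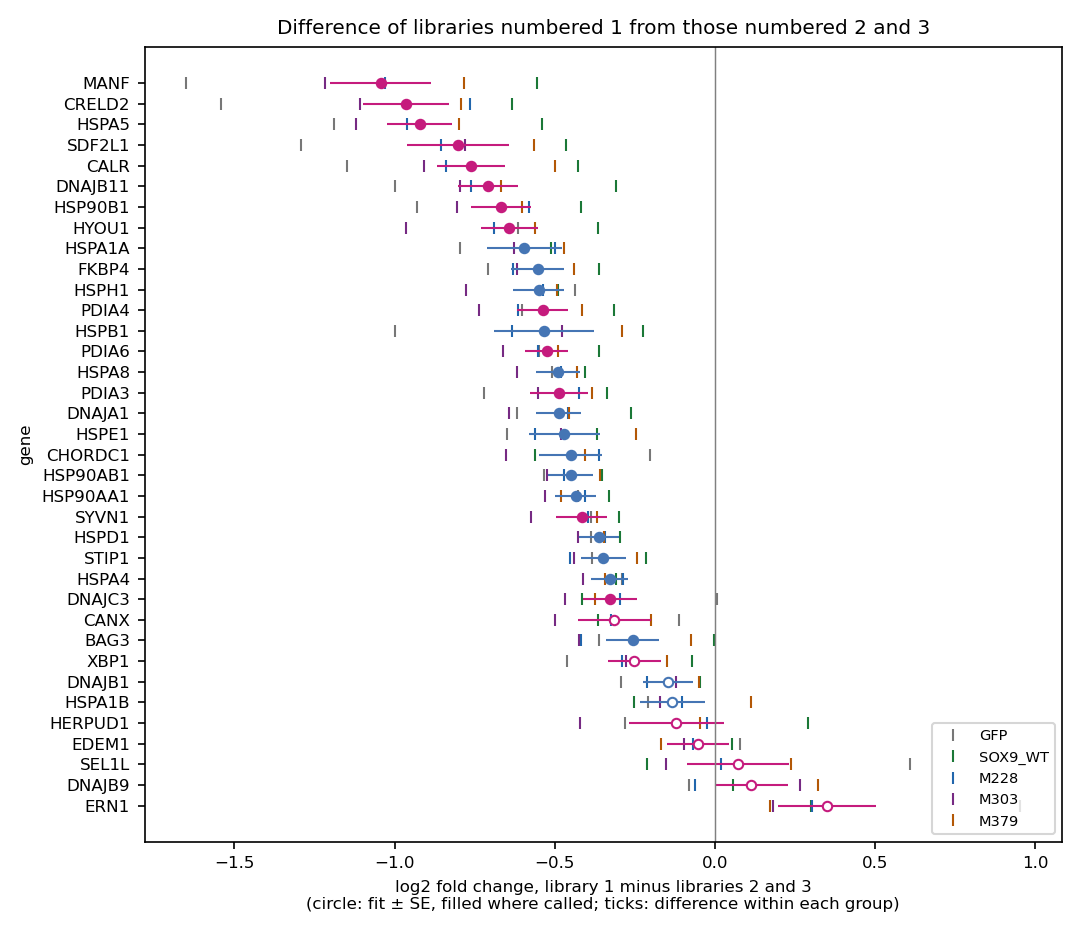
Log2 fold change of libraries numbered 1 against those numbered 2 and 3 for each gene, as the fitted value ± SE (filled where called; pink ER, blue cytosol and mitochondria), with ticks for the difference within each group. MANF lies at -1.04, and ERN1, SEL1L and DNAJB9 lie above 0.

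The median of each arm was lower in library 1 within each of the 5 groups, although ERN1 was higher there in all 5. The median difference within a group, on log2(CPM + 1), was -0.58 for ER members and -0.43 for the others in GFP, -0.35 and -0.32 in SOX9_WT, -0.49 and -0.46 in M228, -0.62 and -0.50 in M303, and -0.40 and -0.35 in M379. A test of whether the difference changed between groups (an interaction term in edgeR over all genes) called 0 members and 0 of 16160 genes, with 0 members and 193 genes at an unadjusted p under 0.05. The test had 5 residual degrees of freedom and 1 library numbered 1 per group. The share of genes at an unadjusted p under 0.05 was itself below 0.05, so the test was conservative. Its 0 calls do not show that the difference was equal in the 5 groups. Without any GFP library, 30 of 36 members were called, 29 of them lower, and the arm medians were -0.47 and -0.42. In that fit 29.1% of all tested genes were called and 13.6% were called lower.

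Other measures moved with the number. The 50 genes with most reads took 12.8 to 15.2% of reads in the libraries numbered 1 and 16.2 to 20.2% in the others. The 36 members took 1.76 to 1.96% against 2.13 to 2.61%. Reads from the mitochondrial genome made up the smallest share in library 1 in 5 of 5 groups. Summed CPM of the 12 colorectal epithelial markers was 12124 to 16308 in the libraries numbered 1 and 18038 to 26729 in the others, with 3 markers called lower and 2 higher. Among them were KRT8 at -0.67 ± 0.10 and KRT18 at -0.77 ± 0.14, the keratins of simple epithelium, and GPA33, an intestinal surface antigen, at 0.41 ± 0.08. KRT8, at 4870 to 12648 CPM over the 15 libraries, and KRT18, at 2447 to 8546, weighed most in the sum. The median log2 fold change of the 12 epithelial markers was 0.07, beside 0.005 over all tested genes. Of the 16 fibroblast, endothelial and leukocyte markers, 3 could be tested and COL3A1 was called lower, at 33 reads or fewer per library. What a replicate number stands for is not stated, and the part of these measures in the members' difference was not tested.

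Over all tested genes, the share called lower was larger at higher levels. It was 3.21% at a mean under 10 CPM, 6.53% from 10 to 30, 10.1% from 30 to 100, 14.6% from 100 to 300 and 23.6% at 300 CPM or more. Of the members at 100 CPM or more, 21 of 26 (80.8%) were called lower, and below 100 CPM 6 of 10 (60%). With the trend over level and exon length removed, a check added after the values were seen, 26 of 36 were called, all lower, with arm medians of -0.39 and -0.26 and HSPA5 at -0.75. In that fit 17.5% of all tested genes were called and 8.71% were called lower.

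Other genes of the same systems, from 8 lists with 147 tested genes, gave 41 called lower (27.9%) and 3 higher by replicate number, beside 7.52% lower and 7.93% higher over all tested genes. These lists, like the members, were chosen with earlier results of these data known. Of 14 genes of the cytosolic chaperonin TRiC and of prefoldin, which fold actin and tubulin, 9 were lower, among them TCP1 (-0.44 ± 0.06, adjusted p = 0.00061), CCT2 and CCT6A, and the median of the list was -0.31. Other cytosolic chaperones and cochaperones gave 11 lower of 34, with AHSA1, the activator of HSP90 ATPase, at -0.44. Other ER folding and secretory genes gave 10 lower of 30, with SEC61A1, the translocation channel, at -0.39 and the isomerase PPIB at -0.58. Mitochondrial chaperones and proteases gave 3 lower of 13, with GRPEL1 at -0.37.

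Of 13 sensors and regulators of the unfolded protein response 2 were called, both lower: CREB3 at -0.48 and WFS1 at -0.33. That share is close to the 15.4% called over all tested genes. Heat shock factors and their regulators gave 0 of 6 in edgeR. Other genes of ER-associated degradation gave 4 lower of 18, with UFD1 at -0.45 and AUP1 at -0.47, and 1 higher, HERPUD2 at 0.42. ATF4 targets of the integrated stress response split: 2 of 19 were lower (ATF5 at -0.67 and SLC7A5 at -0.51) and 2 higher, among them NUPR1, a stress-induced chromatin factor, at 1.99 ± 0.42 (adjusted p = 0.00636). In the 7 comparisons between groups the same lists gave 1 call: PHGDH, the first enzyme of serine synthesis and an ATF4 target, was higher in M303 than in SOX9_WT, by 1.38 ± 0.24 (adjusted p = 0.023).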

How the data were processed

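Poly(A)-selected RNA from 15 HT115 libraries was sequenced with 150-base paired reads, per the labels' protocols. The submitters' processing notes name STAR 2.7.0a and the build hg38 for alignment. Reads were counted per gene by the authors with featureCounts 2.0.1 on Ensembl 101 annotation, per the file headers. The deposited values are raw counts of reads. No strand, pair or multi-mapping option appears in the header, and the tool's defaults then sum both strands, count each read of a pair, and drop reads that match several places or genes. The deposited normalized table was not used.

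Counts were filtered (filterByExpr by group) and scaled (TMM), leaving 16160 genes. Group comparisons used edgeR 4.0.16 quasi-likelihood tests with one mean per group over all 15 libraries (residual df 10). The comparison by replicate number added a term for libraries numbered 1 (residual df 9). A call is a Benjamini-Hochberg adjusted p under 0.05 over all tested genes. CPM are TMM-scaled. DESeq2 1.42.0 was an alternative, with other scaling, no filter, robust dispersion, a replicate block, and single libraries left out. R 4.3.3 was used, and the code was tested on simulated data. A count of 3 reads corresponds to 0.0946 to 0.982 CPM. No replicate pair agreed within sampling noise.

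Members, gene lists and tests were chosen with earlier results of these data known. Named genes are members called in a comparison, the 2 highest and 2 lowest members of each comparison, any member for its level, and up to 3 called genes per list with the smallest p. The numbers pair the libraries (correlation of same-numbered deviations over 0.1 for all 3) for M228, M303 and M379 against GFP and for M303 against SOX9_WT, and there the block changed no count of members called. Promoter letters were matched with Python 3.11.15.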

Additional observations from a re-analysis of the deposited data

Results flagged for a closer look

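Among the 5 libraries numbered 1 and the 10 numbered 2 and 3, each member's highest and lowest library was compared with its nearest neighbour, 72 sets in all, and 16 libraries stood off by Dixon's criterion. Chance flags about 1 in 20 such sets. Library GFP 2 accounted for 11 of the 16, and the criterion was not applied to the other tested genes. It was the highest of 10 for HSP90B1 (1930 CPM, next 1510), PDIA3 (820, next 620), SDF2L1 (119, next 80.4), XBP1 (172, next 144), MANF (199, next 129), HSP90AB1 (4375, next 3759) and HSPE1 (262, next 173). It was the lowest of 10 for ERN1 (9.54, next 19.03), SEL1L (56.0, next 104), EDEM1 (29.4, next 44.5) and CHORDC1 (103, next 134).

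The others were scattered. SOX9_WT 2 was lowest for PDIA6 at 219 CPM, and M228 2 highest for DNAJB9 at 31.6 CPM. Of the libraries numbered 1, M303 1 was lowest for PDIA3 at 361 CPM and for CANX at 856 CPM, and M379 1 was highest for FKBP4 at 542 CPM.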

How the results depend on the processing

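No count of members called moved by more than 1.5 times when single libraries were left out. It stayed at 0 in each of the 7 group comparisons and ranged from 22 to 30 by replicate number. The share of all tested genes called moved too: 5.4% where 22 members were called (without M303 1) and 32.2% where 30 were (without GFP 2). Without a filter on low counts 1 member was called in SOX9_WT minus GFP (SDF2L1), beside 0.482% of tested genes. In each mutant minus SOX9_WT 1 was called (HSPB1), beside 0.857% of tested genes for M228, 0.731% for M303 and 0.367% for M379. Fitting only the 2 groups compared called 1 in M228 minus SOX9_WT and 1 in M379 minus SOX9_WT, HSPB1 in both. The shares of tested genes called were 1.85% and 1.03%. With the replicate block, 1 was called in M228 minus SOX9_WT (HSPA1A at 0.47, adjusted p = 0.0348), beside 1.97% of tested genes. There the numbers fell short of the pairing rule, with correlations of 0.29, 0.06 and 0.22 for numbers 1, 2 and 3. The block changed no other such count. By replicate number DESeq2 called 29 members, beside 17.6% of tested genes, and RLE scaling 26, beside 15.4%. No filter gave 27 (26 lower and ERN1 higher), beside 7.41%, and robust dispersion 27, beside 15.3%. Scaling without the members and the 50 genes with most reads gave 27, beside 15.5%. BAG3 lost its call with RLE scaling, without the filter and with the trend removed (adjusted p of 0.0503, 0.152 and 0.213), and DNAJC3 without the filter (0.052). With the trend over level and length removed, the ER median was -0.39 and the other -0.26.

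Differences that turned sign, all short of the test, are given with the range over single libraries left out. Minus GFP, and turning without GFP 2, these were MANF (-0.88 to 0.017) and SEL1L (-0.032 to 0.52) in SOX9_WT, SDF2L1 (-0.62 to 0.26) and HSPE1 (-0.50 to 0.048) in M228, ERN1 (-0.038 to 0.60) in M303 and MANF (-0.72 to 0.18) in M379. In M228 minus SOX9_WT, SEL1L (-0.086 to 0.019) turned without SOX9_WT 2, SOX9_WT 3 or M228 3, and CANX (-0.13 to 0.097) without SOX9_WT 3 or M228 1. In M303 minus SOX9_WT, HSP90B1 (-0.21 to 0.16) turned without SOX9_WT 3 or M303 1, and was 0.028 with libraries 2 and 3 of every group alone. Leaving out a library also changes the weight of the library numbered 1 in its group. The cause of these changes of sign was not tested. Depth limits GFP 1 most, with 3054755 reads.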
